A study of Mus musculus with 8 samples.

Results

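The genes described here make new fatty acids from acetyl units, lengthen them and introduce their first double bond. Of 10 genes named for the group (Fasn, Scd1, Scd2, Acaca, Acly, Elovl1, Elovl5, Elovl6, Srebf1 and Me1), 9 had a probe set annotated to that gene symbol alone, among 22180 genes with such a probe set on the array. Scd2 is the exception: its probe set carries another symbol too, so no value is given for it. Each of the 9 genes had 1 such probe set, and all 9 lay past the level filter described below, which kept 13112 genes.

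Expression was measured on a mouse gene array in club cells (secretory cells that line the airways) taken from lungs of Atgl KO/cTg mice (4 pools, 38 to 46 weeks old) and wt/cTg mice (4 pools, 41 to 48 weeks old). Each pool held cells of 3 or 4 mice, 16 mice of the first genotype and 14 of the second, fed standard chow and given no treatment. Both genotypes carry cTg, which the labels do not expand, so no comparison shows what cTg itself does. As background, mice that lack the lipase in every tissue develop heart failure, and a transgene that restores the lipase in heart muscle is a known way to keep them alive. Whether cTg is such a transgene is not stated in the labels.

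In de novo synthesis, citrate leaves the mitochondrion and is split by ATP citrate lyase (Acly) into acetyl-CoA. Acetyl-CoA carboxylase (Acaca) turns this into malonyl-CoA, fatty acid synthase (Fasn) builds palmitate from it, and malic enzyme (Me1) supplies part of the NADPH that the synthase consumes. Elongases (the Elovl family) and stearoyl-CoA desaturases (Scd1, Scd2) then shape the products, and SREBP-1, encoded by Srebf1, is a transcription factor that drives most of these genes. In the lung the pathway is best known from alveolar type 2 cells, which make surfactant phospholipid, and Atgl (Pnpla2) stands at the other end of lipid turnover, where it starts the breakdown of stored triglyceride.

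Promoter sequences are shown for Fasn, the gene with the largest difference below, and for 2 elongases whose differences were unlike in size, Elovl1 and Elovl5. Each is the 250 bases before an annotated start (RefSeq, GRCm38.p6), written along the gene's own strand from 5′ to 3′. Capitals mark matches on either strand to the CCAAT box (CCAAT, or ATTGG on the other strand), to the E-box (CACGTG) and to the core of a sterol regulatory element (ATCACCC). As background, the CCAAT box is read by NF-Y, which works together with SREBP proteins, the E-box by USF and related proteins, and the sterol element by the SREBP proteins themselves.
Fasn, chr11:120824548-120824797, minus strand: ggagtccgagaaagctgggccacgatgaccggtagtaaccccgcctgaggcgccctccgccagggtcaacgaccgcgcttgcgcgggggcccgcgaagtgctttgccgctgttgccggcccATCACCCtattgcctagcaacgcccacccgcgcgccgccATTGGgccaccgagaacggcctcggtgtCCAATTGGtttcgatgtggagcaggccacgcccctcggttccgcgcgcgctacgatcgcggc
Elovl1, chr4:118427843-118428092, plus strand: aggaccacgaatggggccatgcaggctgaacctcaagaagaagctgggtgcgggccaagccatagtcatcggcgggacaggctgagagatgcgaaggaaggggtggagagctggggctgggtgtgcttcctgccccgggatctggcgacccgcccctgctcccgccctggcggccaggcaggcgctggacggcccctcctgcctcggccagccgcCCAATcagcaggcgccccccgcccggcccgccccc
Elovl5, chr9:77917115-77917364, plus strand: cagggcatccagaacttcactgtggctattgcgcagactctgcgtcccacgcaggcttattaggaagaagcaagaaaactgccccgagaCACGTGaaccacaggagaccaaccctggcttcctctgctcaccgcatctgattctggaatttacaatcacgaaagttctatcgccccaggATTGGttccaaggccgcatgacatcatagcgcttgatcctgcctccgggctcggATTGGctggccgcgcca

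The Fasn window held 3 CCAAT matches, whose first bases lie 90, 62 and 59 bases before the start, the last 2 overlapping in one palindromic run, and 1 match to the sterol element core, 129 bases before the start. The Elovl1 window shown held 1 CCAAT match, at 35 bases, and the Elovl5 window held 2, at 71 and 17 bases, with an E-box at 161 bases. Another Elovl1 window, not shown, held 0 CCAAT boxes, 0 E-boxes and 2 GC boxes. In all, 8 of the 9 genes had promoter entries, with 12 windows between them because some genes have several starts. Of the 12 windows, 6 held a CCAAT box, 1 an E-box, 6 a GC box (GGGCGG, both strands, not capitalised) and 1 the sterol element core. The core followed by CAC, the longer form searched first, was in 0 of the 12 windows. Over all 32851 windows of this length the shares with a match were 33.8% for the CCAAT box, 6.02% for the E-box, 32.7% for the GC box, 2.28% for the sterol element core and 0.0731% for its longer form. A match is a run of letters, not a measured binding site. The array did not measure binding, and the numbers of matches are given only as a description of the sequences.

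As a check of the genotype labels, Pnpla2 read 6.99, 7.16, 7.09 and 6.70 (log2 signal) in the Atgl KO/cTg pools and 8.70, 8.63, 8.62 and 8.86 in the wt/cTg pools, replicates 1 to 4 in each case. Replicate numbers follow sample order and only name a pool. Where its probes sit relative to the deletion is not stated in the labels. All differences below are log2 differences with the wt/cTg mean subtracted from the Atgl KO/cTg mean, tested with limma across the 13112 genes.

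Fatty acid synthase, the desaturase Scd1 and the elongase Elovl1 read lower in Atgl KO/cTg pools by 0.46 to 0.65 on the log2 scale, while the enzymes that supply acetyl-CoA and NADPH, Acly and Me1, had differences of -0.05 and -0.02. None of the 9 genes passed the limma threshold of an adjusted p under 0.05, which 13 of all 13112 genes passed (0.0991%). By exact permutation p adjusted over all genes no gene could pass: Pnpla2 itself, at the smallest p possible, had 0.656. At an unadjusted p under 0.05, 3 of the 9 genes were lower and 0 higher, against 4.56% and 3.39% of all genes. The groups did not overlap for 2 of the 9, both lower, against 2.62% of all genes lower in this way. The median difference of the 9 genes was -0.15, and 8 of 9 lay below 0. This median moved to -0.10 when Atgl KO/cTg replicate 3 was left out, and among the wt/cTg pools to -0.09 when replicate 2 was left out and to -0.27 when replicate 3 was. Over all genes tested the median was -0.01 and 52.2% lay below 0. The genes were chosen with earlier results of these data known, so these counts describe the group and do not test it.

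**Figure D1:**
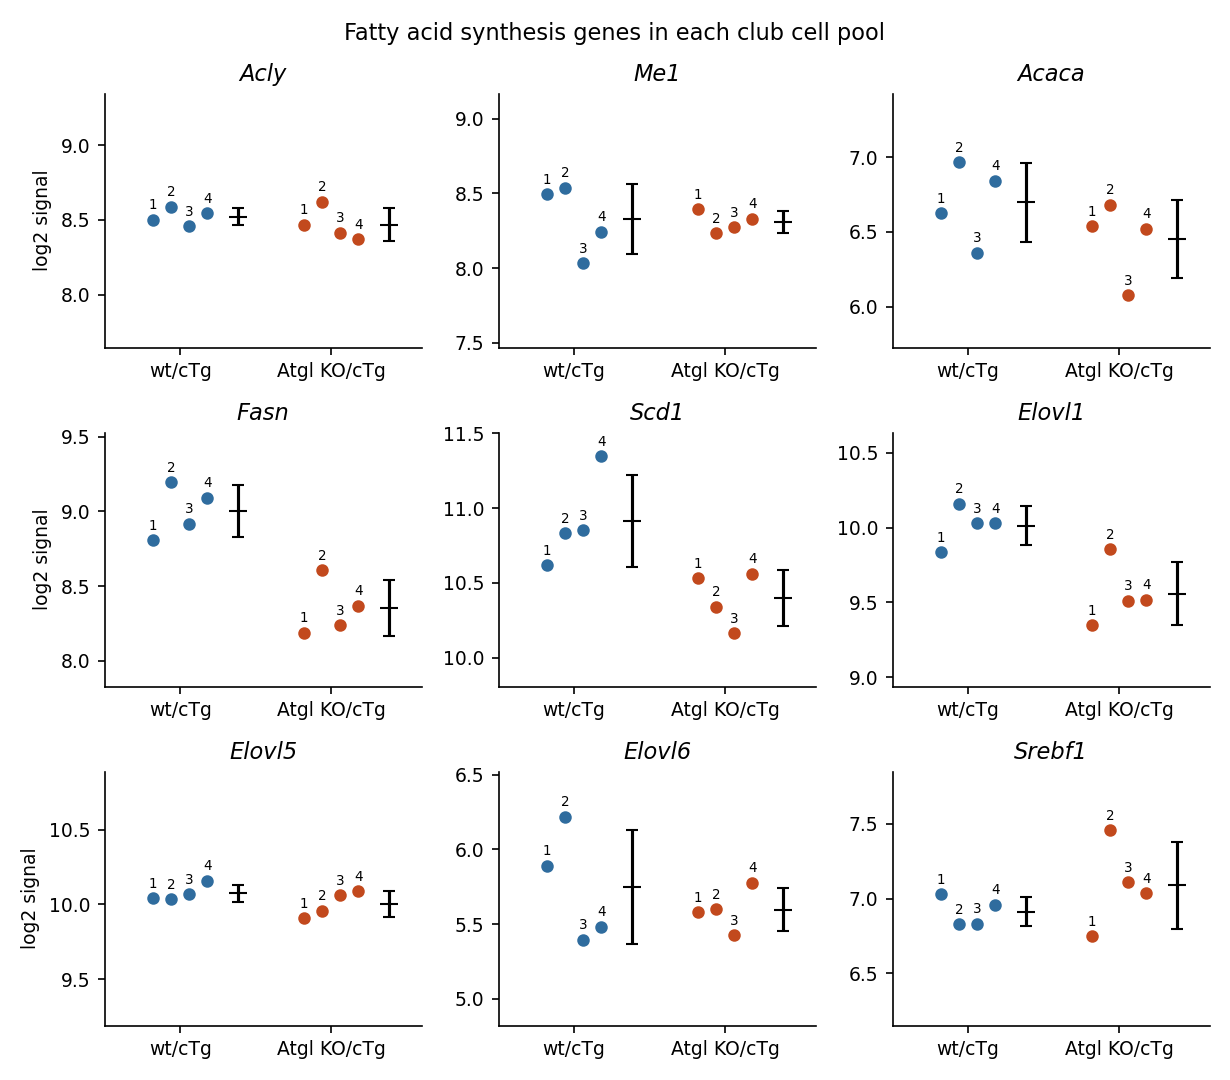
Log2 signal (vertical axis, each panel spanning the same range) of the 9 genes in each pool, wt/cTg in blue and Atgl KO/cTg in orange, with the replicate number above each point and the mean ± SD (n = 4) in black. Fasn and Scd1 are the panels in which all 4 Atgl KO/cTg pools lie below all 4 wt/cTg pools; in the Elovl1 panel a single Atgl KO/cTg pool, replicate 2 at 9.86, reaches past the lowest wt/cTg pool at 9.84.

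Fasn carries out every step that builds palmitate from malonyl-CoA. Its log2 signal was 8.19, 8.61, 8.24 and 8.37 in the Atgl KO/cTg pools and 8.81, 9.20, 8.92 and 9.09 in the wt/cTg pools. The groups stood apart by 0.20, with Atgl KO/cTg replicate 2 the highest of its group and wt/cTg replicate 1 the lowest of its own. The means were 8.35 ± 0.19 and 9.003 ± 0.17 (SD, n = 4), a difference of -0.65 (SE 0.11, 95% interval -0.90 to -0.40), or a level 0.636 of the control. Among 13112 genes Fasn ranked 18 by p (limma p = 0.000138, adjusted p = 0.0973; exact permutation p = 0.0286, the smallest that 70 arrangements of 8 arrays can give, and 0.656 after adjustment over all genes). The call depended on the pools: without Atgl KO/cTg replicate 2 the difference was -0.74 and passed (limma adjusted p = 0.0353), and without wt/cTg replicate 2 it was -0.59 and did not (limma adjusted p = 0.34).

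Acetyl-CoA carboxylase, the committed step just before the synthase, varied more between pools. Acaca read 6.54, 6.68, 6.08 and 6.52 in Atgl KO/cTg and 6.62, 6.97, 6.36 and 6.84 in wt/cTg. The lowest pool of each genotype was replicate 3, and the groups overlapped. The difference was -0.24 (SE 0.16, 95% interval -0.60 to 0.11, limma adjusted p = 0.765). Its spread within groups was larger than that of 83.5% of genes tested (pooled SD 0.26, against a median of 0.17 over all genes).

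The enzymes that feed the pathway had the smallest differences of the 9 genes. Acly read 8.47, 8.62, 8.41 and 8.37 in Atgl KO/cTg and 8.50, 8.59, 8.46 and 8.54 in wt/cTg, a difference of -0.05 (SE 0.08, 95% interval -0.23 to 0.13, limma adjusted p = 0.915). The highest and the lowest value both came from Atgl KO/cTg pools, so the wt/cTg pools lay inside the range of the others. Me1 read 8.39, 8.23, 8.27 and 8.33 in Atgl KO/cTg and 8.49, 8.54, 8.03 and 8.24 in wt/cTg, a difference of -0.02 (SE 0.11, 95% interval -0.27 to 0.23, limma adjusted p = 0.986). Here the wt/cTg pools held both extremes, and the sign of the difference turned when single pools were left out.

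Whether the synthase differed more than its neighbours in the pathway was asked with the log2 difference between the genes on each array, a comparison chosen after the values were known. Fasn minus Acly read -0.28, -0.01, -0.17 and -0.0002 in Atgl KO/cTg and 0.31, 0.61, 0.46 and 0.55 in wt/cTg. Fasn minus Acaca read 1.65, 1.93, 2.16 and 1.85 against 2.18, 2.23, 2.56 and 2.25. In both pairs all 4 Atgl KO/cTg pools lay below all 4 wt/cTg pools. The genotype differences were -0.60 (SE 0.09) for Fasn minus Acly and -0.41 (SE 0.14) for Fasn minus Acaca. Each had an exact permutation p of 0.0286, the smallest possible, and 0.0714 adjusted over the 5 gene pairs compared, so neither passed. Neither could have passed unless more of the 5 pairs had also reached the smallest p.

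Scd1, the desaturase that makes oleate from stearate, read 10.53, 10.34, 10.16 and 10.56 in Atgl KO/cTg and 10.62, 10.83, 10.85 and 11.35 in wt/cTg. The groups did not overlap, but replicate 4 of Atgl KO/cTg and replicate 1 of wt/cTg were only 0.06 apart, and the wt/cTg mean was pulled up by replicate 4. The means were 10.40 ± 0.19 and 10.91 ± 0.31 (SD, n = 4). The difference was -0.51 (SE 0.14, 95% interval -0.83 to -0.20, limma p = 0.00415, adjusted p = 0.398; by exact permutation 0.0286). Replicate 4 of wt/cTg also stood apart in Xist, the transcript of the inactive X chromosome, at 3.75 against 9.34 to 10.67 in the other 7 pools. A score of Xist minus the mean of Y-linked transcripts was -3.24 there and 3.15 to 5.23 in the others. By these transcripts wt/cTg replicate 4 read as male, and the other pools held female cells. Sex was thus unbalanced between the genotypes in every comparison here. The score was 3.15 to 4.81 in the Atgl KO/cTg pools and 5.11 to 5.23 in the other wt/cTg pools. Whether any of these pools also held male cells was not tested. Without wt/cTg replicate 4 the Scd1 difference was -0.37 (limma adjusted p = 0.64), and with this score as a covariate it was -0.45 (limma adjusted p = 0.184). With the same covariate Fasn was at -0.64 (limma adjusted p = 0.148) and Elovl1 at -0.46 (limma adjusted p = 0.368).

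Elovl1, which lengthens saturated very long chain fatty acids for sphingolipids, read 9.35, 9.86, 9.51 and 9.52 in Atgl KO/cTg and 9.84, 10.16, 10.03 and 10.03 in wt/cTg. Of the 4 Atgl KO/cTg pools 3 lay below every wt/cTg pool, and replicate 2 crossed the lowest wt/cTg pool by 0.02. The difference was -0.46 (SE 0.11, 95% interval -0.69 to -0.22, limma p = 0.0015, adjusted p = 0.293; exact permutation p = 0.0571). After each array was centred on its median the groups no longer overlapped, and the call was unchanged.

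Elovl5, which lengthens polyunsaturated fatty acids, had the smallest spread within groups of the 9 genes. It read 9.91, 9.96, 10.06 and 10.09 in Atgl KO/cTg and 10.04, 10.03, 10.07 and 10.16 in wt/cTg, with overlapping groups and a difference of -0.07 (SE 0.07, 95% interval -0.22 to 0.08, limma adjusted p = 0.837). Only 4.74% of genes tested had a smaller pooled SD (0.07).

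Elovl6, which takes palmitate to stearate, was the least evenly measured elongase. It read 5.58, 5.60, 5.42 and 5.78 in Atgl KO/cTg and 5.89, 6.22, 5.40 and 5.48 in wt/cTg, where replicates 1 and 2 lay well above replicates 3 and 4. The difference was -0.15 (SE 0.18, 95% interval -0.54 to 0.24, limma adjusted p = 0.876). Its mean lay closer to the level filter (5.18) than that of the other 8 genes, and a stricter filter at log2 6 left it out.

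The elongases were compared with each other in the same way as the enzyme pairs above. Elovl1 minus Elovl5 differed between genotypes by -0.38 (SE 0.13), lower than every wt/cTg pool in 3 of 4 Atgl KO/cTg pools (exact permutation p = 0.0857, 0.143 adjusted over the 5 pairs). Elovl1 minus Elovl6 differed by -0.30 (SE 0.23, exact permutation p = 0.229, adjusted 0.286) and Elovl5 minus Elovl6 by 0.08 (SE 0.23, exact permutation p = 0.743, adjusted 0.743). A difference in response between the elongases was thus not shown, but these tests could hardly have passed. Even the pairs at the smallest possible p had 0.0714 after adjustment.

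Srebf1 is the gene of the pathway's main transcription factor, and it was the single gene of the 9 with a difference above 0. It read 6.75, 7.46, 7.11 and 7.04 in Atgl KO/cTg and 7.03, 6.83, 6.83 and 6.96 in wt/cTg. Replicates 1 and 2 of Atgl KO/cTg were the lowest and the highest of all 8 pools, and the groups overlapped. The difference was 0.18 (SE 0.14, 95% interval -0.13 to 0.49, limma adjusted p = 0.8). It was 0.29 without Atgl KO/cTg replicate 1 and 0.05 without Atgl KO/cTg replicate 2. The probe set gives 1 value for the gene, and no value for each of its alternative starts was used here.

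**Figure D2:**
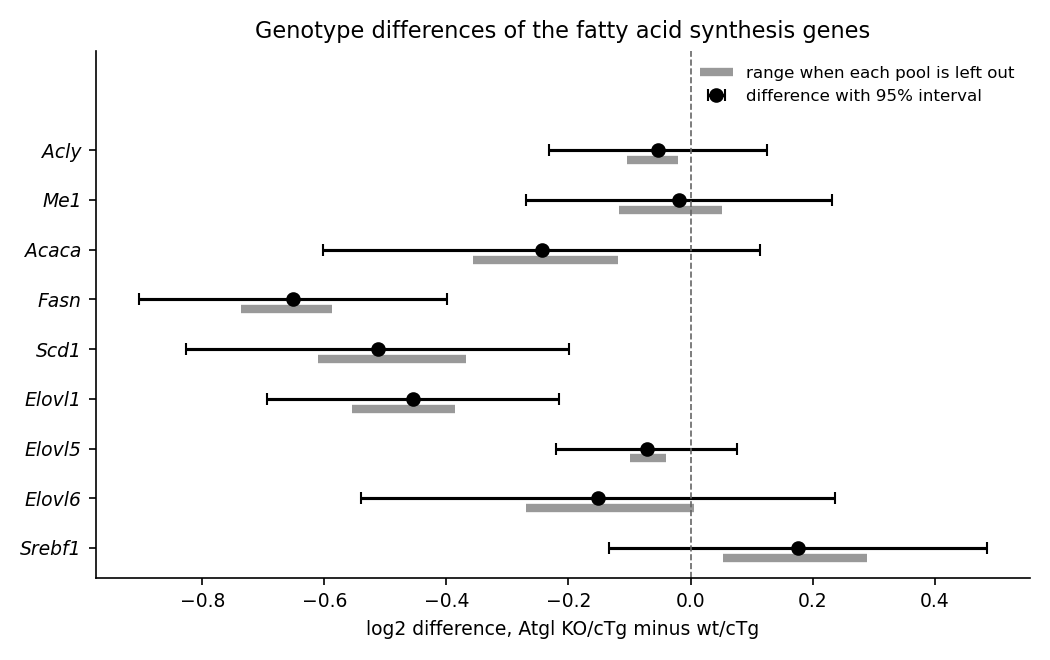
Log2 difference of each gene, Atgl KO/cTg minus wt/cTg (horizontal axis), as black points with the 95% limma interval, unadjusted for the number of genes; grey bars span the differences found when each of the 8 pools was left out in turn. The intervals of Fasn, Scd1 and Elovl1 end below 0, at -0.40, -0.20 and -0.22, and those of the other 6 genes include 0.

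The mouse numbers in the sample names fall into runs, of which 3 hold pools of both genotypes, although the labels do not say that a run is a batch. The design text counts 4 sets that set the genotypes against each other and does not say which pools form a set, so the runs are not known to be these sets. Within these runs Fasn differed by -0.41 (2 pools against 1), -0.96 and -0.72 (1 pool against 1 in each). Scd1 differed by -0.18, -0.67 and -0.79, and Elovl1 by -0.23, -0.65 and -0.51. All 3 genes were thus lower in the Atgl KO/cTg pools of every such run. For Fasn and Scd1, whose groups did not overlap, no other outcome was possible. For Elovl1 the groups overlapped by only 0.02, so this outcome was nearly fixed as well. The runs add no support for any of the 3 genes. Acaca differed by -0.01, -0.89 and -0.32, and Srebf1 was higher in all 3 runs (0.08, 0.28 and 0.08).

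Further genes of the pathway were taken from a list by role, 56 genes of which 44 were tested. None passed over all genes (limma adjusted p under 0.05), 25 lay above 0 and 19 below, and the median was 0.03. At an unadjusted p under 0.05, 1 of the 44 genes was lower (Mid1ip1) and 2 were higher (Acss2 and Prkaa2). Over all genes the shares were 4.56% and 3.39%, so these counts lay near the background and are no result about the pathway. The groups did not overlap for 1 lower and 1 higher gene, against 343 and 228 of all 13112 genes. Mid1ip1 encodes a small protein that helps acetyl-CoA carboxylase to polymerise and so activates it. It read 8.03, 8.02, 7.78 and 8.04 in Atgl KO/cTg and 8.18, 8.52, 8.28 and 8.50 in wt/cTg, without overlap, a difference of -0.40 (SE 0.10, limma adjusted p = 0.367). Acss2, which makes acetyl-CoA from acetate outside the mitochondrion, read 7.63, 7.72, 7.55 and 7.60 in Atgl KO/cTg and 7.70, 7.12, 7.05 and 7.38 in wt/cTg (difference 0.31, SE 0.14, limma adjusted p = 0.612). The wt/cTg pools were scattered and replicate 1 lay within the Atgl KO/cTg range. Prkaa2, a catalytic subunit of AMP-activated kinase, which inhibits the carboxylase, read 6.87, 7.05, 6.83 and 7.16 against 6.78, 6.78, 6.54 and 6.81, without overlap (difference 0.25, SE 0.11, limma adjusted p = 0.615).

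By role, 6 of 9 tested genes of carbon and NADPH supply lay above 0 (median 0.09), and the citrate carrier Slc25a1 was at -0.04. Of the carboxylase and synthase group 4 of 7 lay below 0 (median -0.002). The second carboxylase, Acacb, and the lipogenic protein Thrsp had means over all pools below the level filter, with group means of 5.19 and 5.09 for Acacb and 4.78 and 4.94 for Thrsp in Atgl KO/cTg and wt/cTg. In the elongation cycle 6 of 7 lay below 0 (median -0.08), between -0.19 (Hacd3) and 0.13 (Hacd2). Of the other desaturation genes 4 of 7 lay above 0 (median 0.05), with the polyunsaturated fatty acid desaturases Fads1 at -0.18 and Fads2 at 0.10. Regulators had 11 of 14 above 0 (median 0.06), among them Insig1, which holds SREBP in the endoplasmic reticulum, at 0.03, and Mlxipl, the carbohydrate-responsive factor ChREBP, at 0.05. Sterol synthesis genes, the other branch driven by SREBP proteins, had 4 of 8 tested above 0 (median 0.01, range -0.10 to 0.14). None of these groups held a gene that passed.

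**Figure D3:**
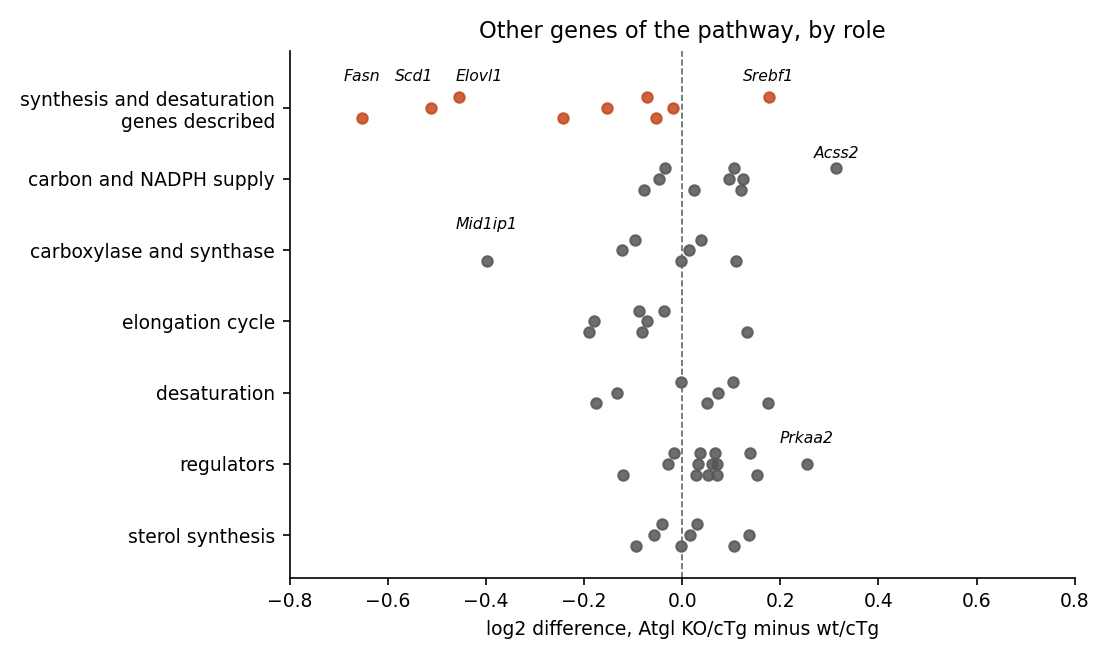
Log2 difference (horizontal axis, Atgl KO/cTg minus wt/cTg) of single genes as points, with the 9 synthesis and desaturation genes in orange and the other pathway genes, grouped by role, in grey; vertical offsets within a row only separate points. Fasn (-0.65), Scd1 (-0.51) and Elovl1 (-0.46) lie to the left of every grey point, of which Mid1ip1 (-0.40) is the lowest.

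Markers of alveolar type 2 cells also read lower in the Atgl KO/cTg pools. All 14 listed type 2 markers were tested, 14 of 14 lay below 0 (median -0.83), and 6 fell over all genes (limma adjusted p under 0.05), against 0.0839% of all genes. Their mean log2 signal was 9.74 to 10.09 in the Atgl KO/cTg pools and 10.31 to 10.87 in the wt/cTg pools, without overlap. Surfactant protein C (Sftpc), the defining marker, read 12.53 and 12.93 on average, so type 2 transcripts were present in both groups. Sftpb (-0.21, limma adjusted p = 0.435) and Sftpa1 (-0.13, limma adjusted p = 0.679) did not pass. The list was chosen with earlier results of these data known, so its counts describe it and do not test it. The pools lined up only in part. The lowest wt/cTg pool was replicate 1 for the type 2 mean, Fasn, Scd1 and Elovl1. The highest Atgl KO/cTg pool was replicate 2 for the type 2 mean, Fasn and Elovl1 but not for Scd1. The lowest Atgl KO/cTg pool was replicate 3 for the type 2 mean and Scd1, but replicate 1 for Fasn and Elovl1. The highest wt/cTg pool was replicate 4 for the type 2 mean and Scd1, but replicate 2 for Fasn and Elovl1. The part of type 2 cells in the Fasn, Scd1 and Elovl1 differences was not tested. In these pooled samples fewer cells of a type and less RNA per cell cannot be told apart.

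**Figure D4:**
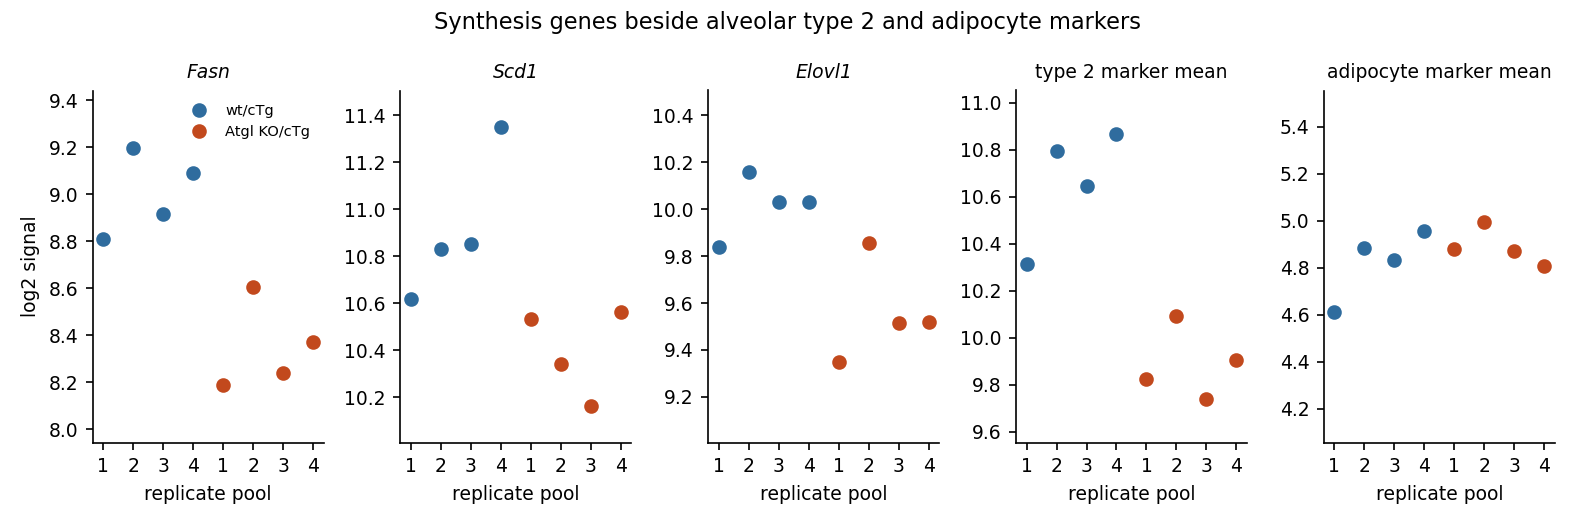
Log2 signal (vertical axes, each spanning the same range) in each replicate pool (horizontal axis), wt/cTg in blue and Atgl KO/cTg in orange, for Fasn, Scd1, Elovl1, the mean of 14 alveolar type 2 markers and the mean of 7 adipocyte markers. The type 2 mean separates the genotypes (9.74 to 10.09 against 10.31 to 10.87), and the adipocyte mean does not (4.81 to 4.996 against 4.61 to 4.96).

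Adipocytes are also known for high synthase and desaturase levels. Of 7 adipocyte markers with a probe set, 4 lay below the level filter, among them the defining markers Adipoq (4.17 and 4.16 in Atgl KO/cTg and wt/cTg) and Lep (3.53 and 3.33). Their mean signal overlapped between genotypes. Of 7 tested heart muscle markers 2 fell (Actc1 and Tnnt2, limma adjusted p under 0.05), against 0.0839% of all genes. The list means were 6.48 to 6.62 in Atgl KO/cTg against 6.91 to 7.11 in wt/cTg. This list was also chosen with earlier results of these data known, so its counts do not test it. Like the type 2 mean, the heart muscle mean separated the genotypes and was lowest among wt/cTg pools in replicate 1. Fibroblast and smooth muscle markers lay below 0 in 12 of 12, with 0 passing and mean signals of 7.87 to 8.40 against 8.34 to 8.78. Their part in the results was not tested either. The club cell markers themselves overlapped (11.29 to 11.48 against 11.24 to 11.35), with Scgb1a1, the defining secretoglobin, at -0.07 (limma adjusted p = 0.828). Of 9 club cell markers 7 lay above 0 and 0 passed.

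The genes whose pool-by-pool pattern was nearest to that of Fasn were found by the root mean square distance between mean-centred log2 values over the 8 arrays, among 13103 other genes. The 5 nearest were Clec4b1 (distance 0.10), Snx25 (0.11), Cpm (0.12), Napsa (0.13) and 4833420G17Rik (0.13), against a median distance of 0.39. Napsa, the aspartic protease that processes surfactant proteins, is on the type 2 list and had a difference of -0.76 (limma adjusted p = 0.0973). For Scd1 the 5 nearest were Fam184a (0.15), Npw (0.15), Rapgef5 (0.15), 1700020L24Rik (0.16) and Gm19439 (0.16), against a median of 0.38. The 2 sets of 5 share no gene, and none of the 10 passed the limma threshold.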

How the data were processed

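The authors deposited 1 log2 signal for each probe set on each array, a unit read from the range of the values, and these were used unchanged. RNA came from a column kit with DNase treatment and was amplified by a NuGEN whole-transcriptome kit before biotin labelling, per the labels' protocols. The sources used here give no software, background correction or normalization, and signal above background and scan batches were not analysed here. The number of arrays limits the precision.

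Of 41345 probe sets, 23521 had 1 gene symbol in the platform annotation, 1814 several and 16010 none. The probe set with the highest mean was kept per gene (22180 genes), and genes with a mean above the median of all probe sets (5.18) were tested (13112). Array medians ran from 5.12 to 5.24, and correlations between arrays from 0.965 to 0.985. The genotype comparison used limma 3.58.1 (R 4.3.3; lmFit, eBayes with a variance trend, two-sided), with Benjamini-Hochberg adjustment over all genes tested and a threshold of 0.05. Single values also had exact two-sided permutation tests over 70 arrangements (scipy 1.17.1). Figures were drawn with matplotlib 3.10.9. The steps were tested on simulated data.

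The genes and gene lists, and the rule for names, were chosen with earlier results of these data known. Named were the 9 genes, Pnpla2, 8 preset pathway genes, other pathway genes with an unadjusted p under 0.05, up to 3 markers per cell type list used and the 5 nearest patterns to Fasn and Scd1; Hacd2, Hacd3 and Napsa mark the ends or membership of a list. The preset comparison of Scd1 with Scd2 was not run, as Scd2 had no probe set of its own, and 2 pairs with Fasn were added after the values were known. Marker lists not described, whose mean signals overlapped between genotypes, were those of macrophages, endothelium, alveolar type 1, ciliated, goblet and lymphoid cells and neutrophils. Their median differences were -0.09, -0.33, -0.16, 0.31, 0.59, -0.06 and 0.56, with 0 members passing limma.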

Additional observations from a re-analysis of the deposited data

Results flagged for a closer look

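Among 40 groups of 4 pools tested, which covered the 9 genes, Pnpla2 and the named pathway genes, 3 held a pool whose gap to its neighbour was over 0.829 of the group's range. Chance gives about 1 in 20 groups, and none of the 3 was a group of the 9 synthesis and desaturation genes. For Thrsp, replicate 3 of Atgl KO/cTg read 4.46, against 4.87 to 4.90 in the remaining 3. Mid1ip1 read 7.78 in Atgl KO/cTg replicate 3 and 8.02 to 8.04 in the others. For Prkaa2, replicate 3 of wt/cTg read 6.54 and its other 3 pools 6.78 to 6.81.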

How the results depend on the processing

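Of 331 values recomputed under other settings, 321 kept their direction and their side of the threshold, or a count within 1.5 times. Part of this was fixed in advance. Averaging probe sets left the differences of the 9 genes unchanged, as each had 1 probe set. The adjusted permutation p could not pass for any gene. Pair tests with pools left out had too few arrangements to pass. With array weights Fasn was at -0.72 and passed (limma adjusted p = 0.0233), so that 1 of the 9 genes passed; leaving out single pools gave 0 to 1 genes, with Fasn between -0.74 and -0.59. Under all settings the Fasn adjusted p ran from 0.0233 to 0.34 by limma. By permutation it was 0.656, the smallest value that any gene could have. Me1 was at 0.0035 after quantile normalization and between -0.12 and 0.051 without single pools, and Elovl6 between -0.27 and 0.0050. Elovl5 minus Elovl6 lay between -0.091 and 0.20. The cause was not tested. Replicate numbers pair no pools here, and the pools of each of the 4 sets in the design text are not named. With the run of mouse numbers as a block, in which wt/cTg replicate 3 stands alone and adds nothing, Fasn was at -0.67 (limma adjusted p = 0.299), 0 of the 9 genes passed and their median difference was -0.27; without the pools at both ends of the first principal component it was -0.24. Low signals such as Elovl6, Acacb and Thrsp could not be set against background.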
